A study of Homo sapiens with 6 samples.

Results

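The genes described here encode the proteins of the cytosolic ribosome. They were chosen by name: protein-coding genes called RPL or RPS with a number, together with RPSA, RPLP0, RPLP1, RPLP2 and FAU, and without the S6 kinases. The rule found 87 of the 58735 genes in the deposited table, 52 of the large subunit and 35 of the small subunit. The libraries were made from RNA of Ovcar8, a long-established human ovarian cancer cell line grown in RPMI-1640 medium. One group of 3 libraries came from cells with 5% fetal bovine serum (FBS), which supplies growth factors and lipids. Another group of 3 came from cells kept serum-starved. The time is given as 48 h for both groups. The question the comparison addresses is which transcripts differ after that time without serum. Whether the replicates were separate cultures is not stated in the labels, so every p-value rests on the spread among these libraries alone, which may be technical.

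Ribosomal proteins are made in near equal numbers and assembled with ribosomal RNA in the nucleolus into a small subunit, which reads the mRNA, and a large subunit, which joins amino acids. Most of their mRNAs begin with a C followed by an unbroken run of pyrimidines, the terminal oligopyrimidine or TOP tract. Through this tract the kinase mTORC1 and the RNA-binding protein LARP1 raise or hold back translation with the supply of growth factors and amino acids, so that ribosome production is known to respond to serum at the step of translation. The libraries measured here hold total mRNA levels and do not measure translation.

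The annotated starts of 8 members are shown to let the tract be seen in the genes with large positive and negative differences and in 2 pairs of paralogs. Each stretch runs 5′ to 3′ on the transcript's strand over 30 bases, 10 before the start and 20 from it, from RefSeq on GRCh38.p14. Capitals mark the C at the start and the pyrimidines that follow it without a break, and a stretch with no capitals has no such tract. RPL39 lies at chrX:119791611-119791640 on the minus strand, RPS24 at chr10:78033853-78033882 on the plus strand, RPL35 at chr9:124861938-124861967 on the minus strand and RPL36 at chr19:5690285-5690314 on the plus strand. RPS27 lies at chr1:153990752-153990781 on the plus strand, RPS27L at chr15:63157458-63157487 on the minus strand, RPL26 at chr17:8383174-8383203 on the minus strand and RPL26L1 at chr5:172958719-172958748 on the plus strand.
RPL39: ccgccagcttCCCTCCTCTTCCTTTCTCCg
RPS24: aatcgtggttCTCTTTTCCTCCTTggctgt
RPL35: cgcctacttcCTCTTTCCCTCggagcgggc
RPL36: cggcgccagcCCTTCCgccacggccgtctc
RPS27: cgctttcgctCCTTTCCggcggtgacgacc
RPS27L: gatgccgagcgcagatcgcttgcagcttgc
RPL26: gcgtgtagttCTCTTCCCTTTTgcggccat
RPL26L1: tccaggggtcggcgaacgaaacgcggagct

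The tract was 19 bases long in RPL39 and 14 in RPS24, and 11 in RPL35 and 6 in RPL36. RPS27L and RPL26L1, which are paralogs of RPS27 and RPL26, had none at any annotated start, while RPS27 had 7 bases and RPL26 had 12. Among all members, 66 that were tested for expression had a start in RefSeq, and 47 of them (71.2%) carried a C at the start followed by at least 4 pyrimidines. The search read the transcript's strand only, at the start position itself. The same pattern stood at a start of 728 of 9681 tested protein-coding genes (7.52%). It stood at the start in 1429 of all 35116 windows around an annotated start (4.07%). The tracts of the members ran from 5 to 19 bases, with a median of 8. The 19 tested members without it included RPL3, RPL4, RPL10A, RPS4X and RPS7 besides RPS27L and RPL26L1. A match is a description of the letters at an annotated start, which may differ from the start used in these cells.

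The 6 libraries held 16379416 to 19558484 counts assigned to genes. The epithelial keratins KRT8, KRT18 and KRT7 and the Müllerian factor PAX8 were present in every library (PAX8 at 914 to 1569 counts), while EPCAM was low at 15 to 86 counts and WT1 at 11 to 61. Of the listed fibroblast markers, the collagen COL1A1 was at 6260 to 17316 counts, while DCN and LUM held 0 and 0 to 3. The leukocyte marker PTPRC held 0 to 2 counts and the endothelial marker PECAM1 0 to 7. Of the 87 members, 82 passed the filter on low counts, 49 of the large and 33 of the small subunit, among 13772 genes tested. Below the filter were RPL10L and RPL3L, paralogs known from testis and from heart and skeletal muscle, RPL36A, RPS4Y1 and RPS4Y2. RPL10L held 0 counts in all libraries, which allows at most 3 counts in each, or 0.132 to 0.204 CPM (counts scaled to the library's size), and RPL3L held 21 counts over all 6.

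Levels between members were compared on the deposited FPKM, which divides counts by gene length. RPL8, a protein of the large subunit near its catalytic centre, had the highest mean at 4055 ± 493 FPKM with FBS and 2911 ± 1649 in serum-starved libraries (SD, n = 3 each). It was followed by RPS2 of the mRNA entry site (mean over all libraries 2426) and RPLP0 of the stalk (2390). The median member stood at 346 FPKM, with the middle of the members between 96.7 and 641. Of the 82, 11 members were above 1000 FPKM, and 30 were among the 100 genes with the highest mean FPKM. At the other end 9 members were under 20 FPKM, and the lowest were RPS10 (0.797), RPL17 (1.36) and RPS27L (1.37). The order was alike in the libraries: rank correlations across the 82 members ran from 0.919 to 0.991 between libraries, a description only, since the genes share libraries and lengths. The deposited length joins all transcripts of a gene, with a median of 2992 bases in the members against 873.5 for the principal transcript. Ranked by CPM per kilobase of the principal transcript, the order correlated at 0.904 with the order by FPKM.

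**Figure D1:**
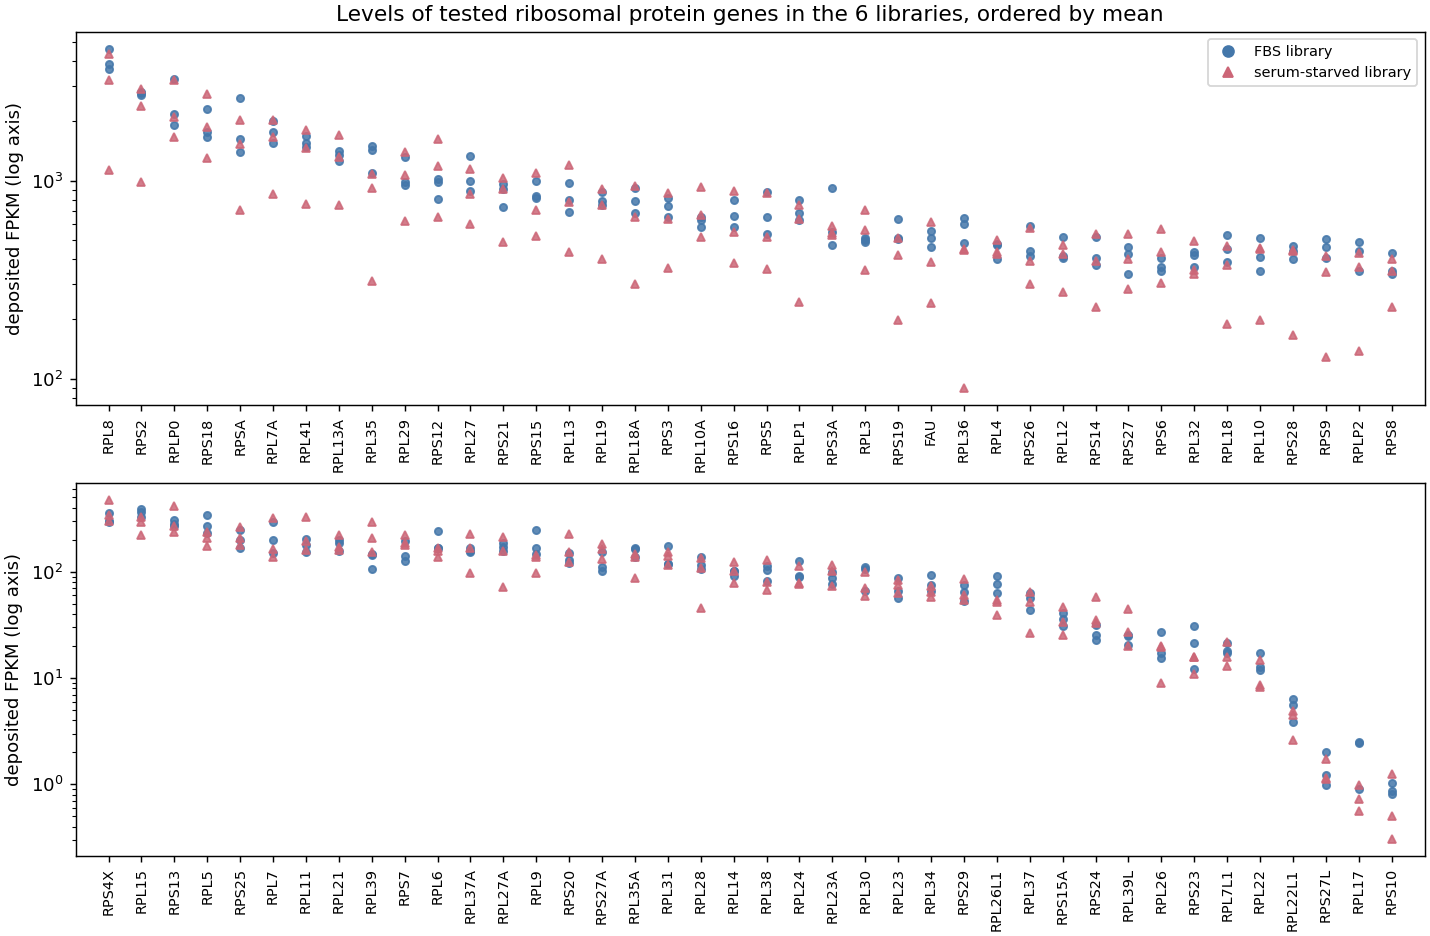
Deposited FPKM (log axis) of the tested ribosomal protein genes reported here in the 3 FBS libraries (circles) and the 3 serum-starved libraries (triangles), ordered by mean from RPL8 to RPS10. The symbols of the 2 groups lie among each other in most genes, and for many genes of the upper panel 1 serum-starved library lies far below the other 5.

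No ribosomal protein mRNA passed the test between serum-starved and FBS libraries in either direction. Under edgeR's quasi-likelihood test, adjusted over all genes by Benjamini-Hochberg, 0 of 82 members had an adjusted p under 0.05, beside 39 of 13772 genes (0.283%). The smallest adjusted p among the members was 0.362, for RPL17. At an unadjusted p under 0.05, RPL17 and RPL26L1 were lower and RPL39 was higher, 3 of 82 (3.66%) beside 10.4% of all genes. DESeq2 also called 0 members, beside 160 genes (1.16%), and at an unadjusted p under 0.05 it gave 6 of 82 members (7.32%) beside 1627 of 13772 genes. The members' median log2 fold change was -0.20, with 60 below 0 and 22 above. The median of all genes was -0.02, with 51.5% of them below 0. The large subunit had a median of -0.22 (38 of 49 below 0) and the small subunit -0.16 (22 of 33 below 0).

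The median moved most with 1 serum-starved library. Within each gene, the log2 CPM was taken as the deviation from its mean over the 6 libraries. The median deviation of the members was 0.14, -0.00 and 0.12 in FBS replicates 1 to 3, and 0.33, -0.01 and -0.56 in serum-starved replicates 1 to 3. The serum-starved group thus held both the highest and the lowest library. In serum-starved replicate 3, 57 of 82 members had their lowest value, where 27.3% of all tested genes did, and in serum-starved replicate 1, 39 members had their highest, where 24.8% of all genes did. Without serum-starved replicate 3 the members' median was 0.02, with 36 below 0, and the large and small subunits stood at 0.00 and 0.03. In that fit 0 members passed, beside 257 of 14179 genes (1.81%). The median spread of a member, as a coefficient of variation, was 15% among FBS libraries and 34.2% among serum-starved ones. Genes of at least 100 CPM had 16% and 30% in the same groups, and the 72 members at that level had 14.7% and 34.6%.

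**Figure D2:**
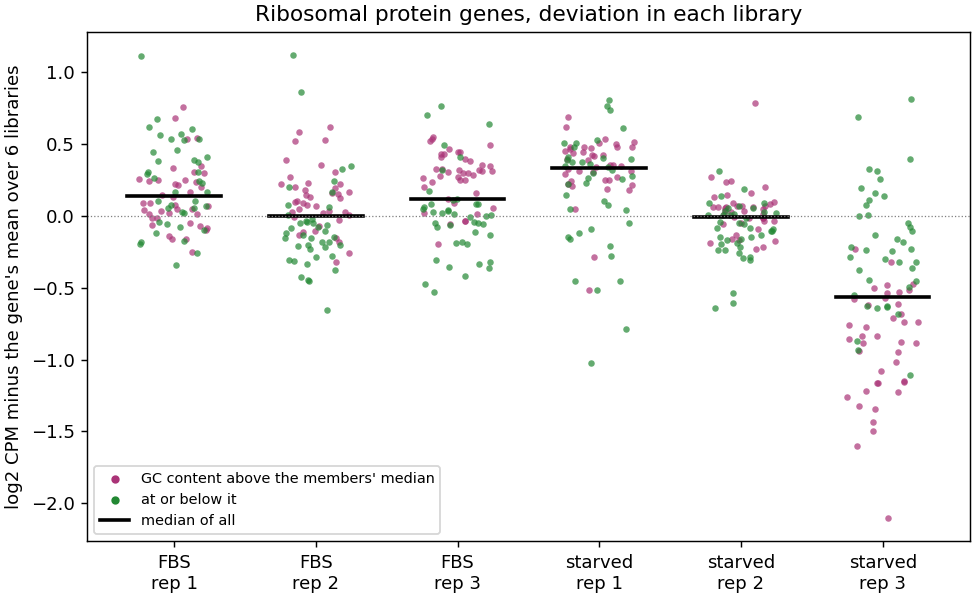
Log2 CPM of each of the 82 tested ribosomal protein genes minus its own mean over the 6 libraries, 1 dot per gene and library, with the median of all as a bar. Colours split the genes at the members' median GC content. The median bar is at 0.33 in serum-starved replicate 1 and at -0.56 in replicate 3, where genes of higher GC content lie lowest.

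Ribosomal protein genes took 13.3%, 11.7% and 13.3% of all counts in the FBS libraries and 12.6%, 11.3% and 8.21% in the serum-starved ones, in the order of the replicates. The groups overlapped, with serum-starved replicate 1 above FBS replicate 2, while serum-starved replicates 2 and 3 lay below every FBS library and replicate 3 was the lowest. The means were 12.8% ± 0.895 and 10.7% ± 2.27 (SD, n = 3 each), a difference of -2.03 percentage points (exact two-sided permutation test, p = 0.2, where the smallest possible p is 0.1). Without serum-starved replicate 3 the difference was -0.775 points (exact permutation p = 0.4). These are shares of a library, so total mRNA per cell was not measured, and fewer cells and less RNA per cell cannot be told apart. The proportion of the subunits differed by less than its spread between libraries: counts of the large subunit were 1.54 ± 0.0865 times those of the small subunit with FBS and 1.55 ± 0.0407 times without serum (n = 3 each, exact permutation p = 0.9). Serum-starved replicate 3, at a ratio of 1.59, lay between FBS replicates 1 and 2 at 1.60 and 1.58.

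**Figure D3:**
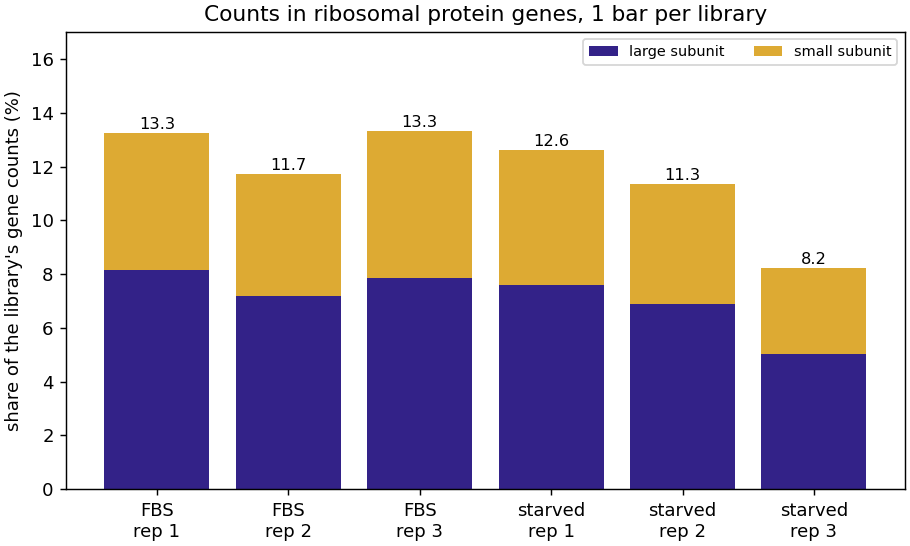
Share of each library's gene counts in ribosomal protein genes, stacked by subunit, 1 bar per library. The bars are at 11.7% to 13.3% with FBS and at 8.21% to 12.6% in serum-starved libraries, where replicate 3 is the lowest.

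Among the members with the lowest log2 fold changes, RPL36 (ENSG00000130255, chr19:5674947-5691876 on GRCh38), a large-subunit protein, was measured at 1529, 1387 and 1117 CPM with FBS and at 1042, 1038 and 210 CPM in serum-starved libraries. Every serum-starved library was below every FBS library, and replicate 3 was far below the other 2. The log2 fold change was -0.82 (SE 0.45, edgeR adjusted p = 0.548), and it was -0.37 without replicate 3. RPL35, which sits at the exit of the peptide tunnel, was at 2395, 2235 and 1712 CPM with FBS and at 1689, 1442 and 491 CPM without serum. The groups did not overlap there either, though the lowest FBS and highest serum-starved values lay close together, and the log2 fold change was -0.81 (SE 0.40, edgeR adjusted p = 0.502), or -0.44 without replicate 3.

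RPL17 had the lowest log2 fold change of all members, -1.35 (SE 0.51, edgeR adjusted p = 0.362), at very low counts. It was measured at 6.30, 6.31 and 2.27 CPM with FBS and at 1.43, 1.87 and 2.51 CPM without serum. The groups overlapped, since serum-starved replicate 3 was above FBS replicate 3. RPL26L1, the paralog of RPL26, was at 109, 90 and 74.5 CPM with FBS and 64.2, 62.8 and 46.6 CPM without serum, and its groups did not overlap (log2 fold change -0.66, edgeR adjusted p = 0.431). In all, 7 members had every serum-starved library below every FBS library (8.54%, beside 7.65% of all genes), among them RPL36, RPL35, RPL26L1, RPL9 and RPL6. RPL9 and RPL6 were named after their values were seen, at log2 fold changes of -0.56 and -0.33. In RPL9, which lies near the factor-binding site, the nearest libraries of the groups were at 749 and 747 CPM.

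In 2 of 82 members (2.44%, beside 10% of all genes) every serum-starved library was above every FBS library, so that 9 of 82 had no overlap in either direction, beside 17.7% of all genes. RPL39 (ENSG00000198918, chrX:119786504-119791643 on GRCh38), a very short protein that lines the peptide exit tunnel, was at 323, 233 and 323 CPM with FBS and at 640, 340 and 456 CPM without serum. Serum-starved replicate 1 was the highest, and replicate 2 was close to the FBS values. The log2 fold change was 0.71 (SE 0.32, 95% interval 0.03 to 1.39), and the edgeR adjusted p was 0.454. RPS24, a small-subunit protein mutated in Diamond-Blackfan anaemia, an inherited failure of red cell production, was at 257, 204 and 183 CPM with FBS and 284, 268 and 465 CPM without serum. Here replicate 3, the library in which most members were lowest, was the highest of all, and the log2 fold change of 0.66 was 0.36 without it (edgeR adjusted p = 0.481 with it and 0.503 without it). Next in order came RPS27A (0.39), RPL39L (0.37) and RPL11 (0.35), whose groups overlapped. Without serum-starved replicate 1, RPL39 stood at 0.46, RPL39L at 0.02 and RPL11 at 0.01.

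The acidic stalk, which recruits the elongation factors, is made of RPLP0, RPLP1 and RPLP2. RPLP0 was at 7975, 8774 and 13347 CPM with FBS and at 13208, 8650 and 6837 CPM without serum, so that both groups spanned nearly the same range. RPLP1 and RPLP2 had log2 fold changes of -0.37 and -0.46 (edgeR adjusted p = 0.791 and 0.728) and stood at -0.02 and -0.11 without serum-starved replicate 3. RPL5 and RPL11 bind 5S ribosomal RNA and, when free, the p53 ligase MDM2. RPL5 was at 1309, 1016 and 873 CPM with FBS and at 664, 794 and 907 CPM without serum, at -0.44, with serum-starved replicate 3 inside the FBS range. RPL11 was at 0.35. The 2 partners thus had values of opposite sign, neither past the threshold (edgeR adjusted p = 0.684 and 0.766). RPL11 stood at 0.01 without serum-starved replicate 1, and RPL5 at -0.13 with the GC and length correction.

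RPS6 is the substrate of the S6 kinases, whose activity follows growth factors. It was at 1033, 961 and 1132 CPM with FBS and at 1575, 1220 and 851 CPM without serum. The serum-starved libraries lay on both sides of the FBS range, and the log2 fold change was 0.22 (95% interval -0.46 to 0.91, edgeR adjusted p = 0.867), or 0.00 without serum-starved replicate 1. It was 0.42 without serum-starved replicate 3 and 0.57 with the GC and length correction (edgeR adjusted p = 0.437 and 0.331). The correction without serum-starved replicate 3, chosen after seeing the data, gave 0.85 (edgeR adjusted p = 0.0856). RPS27A and FAU are made as fusions with ubiquitin and a ubiquitin-like protein. RPS27A was at 0.39 and FAU at -0.29 on the log2 scale, and FAU stood at -0.02 without serum-starved replicate 3. RPS19, the member most often mutated in Diamond-Blackfan anaemia, was at 2025, 1964 and 2477 CPM with FBS and at 1980, 1637 and 771 CPM without serum (log2 fold change -0.56, edgeR adjusted p = 0.629). One serum-starved library of RPS19 lay within the FBS range, and RPS19 stood at -0.26 with replicate 3 left out. Of the 9 Diamond-Blackfan genes listed, 6 were below 0 and 3 above, with a median of -0.34 and RPS24 the highest at 0.66. Their median was -0.04 without serum-starved replicate 3 and -0.13 with the GC and length correction.

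RPLP0, RPL13A and RPS18 are often used as reference genes in PCR. Their log2 fold changes were -0.07 (95% interval -0.85 to 0.71), -0.10 (-0.84 to 0.65) and 0.05 (-0.70 to 0.80), intervals that reach past 1.5-fold both ways. RPL13A was at 3094, 3222 and 3422 CPM with FBS, a narrow range, and at 4092, 3188 and 1836 CPM without serum. Of the serum-starved values of RPL13A, replicate 1 lay above the FBS range, replicate 2 within it and replicate 3 below it. RPL4, which lines the peptide tunnel, was alike in both groups, at 2754, 2299 and 2755 CPM with FBS and at 2888, 2461 and 2523 CPM without serum (log2 fold change 0.01). RPL3 and RPL10A were at 0.12 and 0.18, RPS25 and RPL38, both tied to internal ribosome entry or selective translation, at 0.08 and -0.11, and RPS3, which also acts in DNA repair, at -0.25. RPL38 and RPS3 stood at 0.07 and 0.03 without serum-starved replicate 3, and RPL3 at -0.12 with the GC and length correction. The most abundant members RPL8 and RPS2 were at -0.48 and -0.40, and at -0.10 and -0.07 without serum-starved replicate 3. Proteins shared by all domains of life gave a median of -0.19 in the small subunit (11 of 15 below 0) and -0.14 in the large (12 of 18 below 0). Without serum-starved replicate 3 these medians took the other sign, at 0.03 and 0.05.

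The members differed by GC content in how they stood in the libraries, most in serum-starved replicate 3. Split at their median GC content of 50.1%, the 41 members of higher GC had a median deviation of -0.86 in that library and the other 41 one of -0.23. In serum-starved replicate 1 these medians were 0.36 and 0.26, and in serum-starved replicate 2 they were 0.04 and -0.08. FBS libraries also split: the medians were 0.09 and 0.23 in replicate 1, 0.10 and -0.13 in replicate 2, and 0.31 and -0.00 in replicate 3. Across the 82 members, the log2 fold change and GC content had a Spearman rank correlation of -0.27, and of 0.08 without serum-starved replicate 3. Over all tested genes the same values were 0.29 and 0.54, so the members' sign with all libraries was the opposite of that of all genes. RPL36 had the highest GC content of the members at 63.6%, and RPL39 was at 43.8%. Correcting each library for transcript GC and length left the members' median at -0.18 and 0 of 82 passing (edgeR adjusted p), beside 125 genes (0.908%). With it 19 members were under an unadjusted p of 0.05, 15 lower and 4 higher, 23.2% beside 16.8% of all genes. Across the members, however, the corrected fold changes followed GC content more closely than the uncorrected ones, with a rank correlation of -0.60. A further alternative, chosen after seeing the data, was the correction without serum-starved replicate 3. In it 18 of 82 members (22.0%) were under that p, 8 lower and 10 higher, beside 2063 of 14175 genes. The members' median was -0.05 there. With the correction and all libraries, the smallest adjusted p was that of RPL39, at 0.0637 with a log2 fold change of 1.17 (edgeR, Benjamini-Hochberg). In that fit RPS24 was at 0.60 (edgeR adjusted p = 0.12). RPL35, RPS9 and RPS19 were the lowest in p after RPL39 in the same fit, at -0.89, -0.90 and -0.79 (RPS9 named after its values were seen). The part of GC content in the differences between the groups was not tested.

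**Figure D4:**
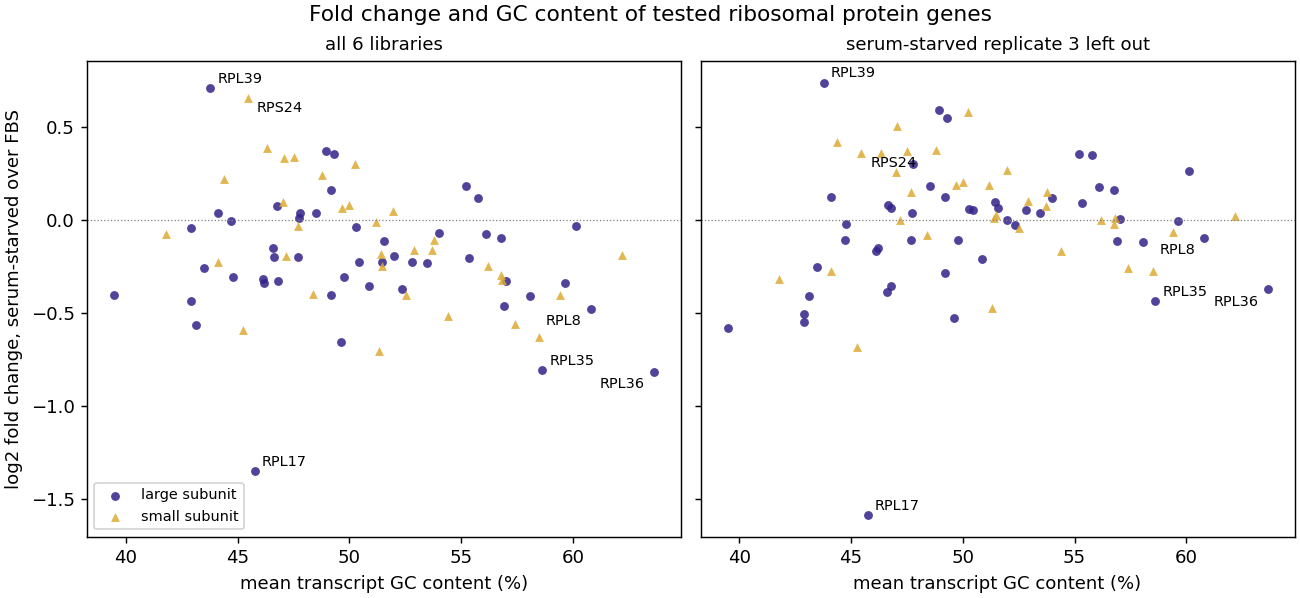
Log2 fold change of serum-starved over FBS against mean transcript GC content for the 82 tested ribosomal protein genes, large subunit as circles and small subunit as triangles, with all 6 libraries (left) and without serum-starved replicate 3 (right). On the left the values fall with GC content (rank correlation -0.27) and on the right they do not (0.08), while RPL39 stays highest and RPL17 lowest in both panels.

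Some members share their sequence with other annotated genes, which touches the levels given above. At least 50% of the principal transcript lay on exons of another gene on the same strand in 5 members, among them RPL36A (77.6%), RPS10 (77.0%), RPL17 (76.3%) and RPL26 (59.0%). These held 30, 205, 377 and 4917 counts over all libraries, where the median of the 78 tested members under that share was 103726 and the lowest 1216. The overlapping genes, among them the readthrough genes RPL36A-HNRNPH2, RPS10-NUDT3 and RPL17-C18orf32, each held 0 counts. The counting tool is not given in the sources used here, and its part in these low counts was not tested. The levels of RPL17 and RPS10 and their fold changes are therefore uncertain.

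Ribosomal protein genes also have many processed copies in the genome, and 1146 annotated pseudogenes of the members were in the table, 222 of them with a count. RPS2P5 held 183403 counts and RPL9P9 102825. Where pseudogene counts were added to their parents, they made up 73.4% of the sum in RPS10, 55.5% in RPL9, 26.5% in RPS2 and 25.6% in RPS28, over 10% in 11 members and under 1% in 51 tested members. The sums gave log2 fold changes of -0.67 for RPL9, -0.40 for RPS2 and 0.63 for RPL39, and the members' median remained -0.20. As a class, the pseudogenes held 0.738%, 0.692% and 0.673% of counts with FBS and 0.583%, 0.552% and 0.403% without serum. These groups of values did not overlap, and the difference of -0.188 percentage points had the smallest p that 3 against 3 libraries allow (exact two-sided permutation test, p = 0.1). Whether reads were split between a parent and its copies was not tested.

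In all, 5 paralog pairs were compared, by the log2 ratio of their counts within each library, and in each the ratio differed by no more than the libraries of a group did among themselves. RPL22L1 over RPL22, an RNA-binding pair, stood at -2.42 ± 0.31 with FBS and -2.41 ± 0.51 without serum (SD, n = 3 each, exact permutation p = 1). RPS27L, an inducible target of p53, stood at -5.10 ± 0.34 and -5.09 ± 0.79 over RPS27 (exact permutation p = 1). For these pairs serum-starved replicate 3 was the highest of all 6 libraries, at -1.82 and -4.20. RPL39L, known from testis and some tumours, stood at -3.51 ± 0.39 and -3.88 ± 0.44 over RPL39 (exact permutation p = 0.5). RPL7L1 stood at -2.03 ± 0.31 and -2.12 ± 0.39 over RPL7 (exact permutation p = 0.8).

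RPL26L1 was the only one of these paralogs with more counts than its partner, 7954 against 4917, at a log2 ratio of 0.86 ± 0.29 with FBS and 0.55 ± 0.40 without serum (n = 3 each, exact permutation p = 0.3). The order within that pair is uncertain, since RPL26 is among the genes with a shared transcript and its pseudogenes made up 17.4% of the summed counts. Adjusted over the 5 pairs, every exact permutation p was 1. RPL36AL held 7475 counts where RPL36A held 30, and the pairs with RPL36A, RPL3L and RPL10L could not be compared because a gene was below the filter. RPL36AL itself lies outside the naming rule, at a log2 fold change of -0.60 (edgeR adjusted p = 0.536), and at 0.01 with the GC and length correction (edgeR adjusted p = 0.991).

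**Figure D5:**
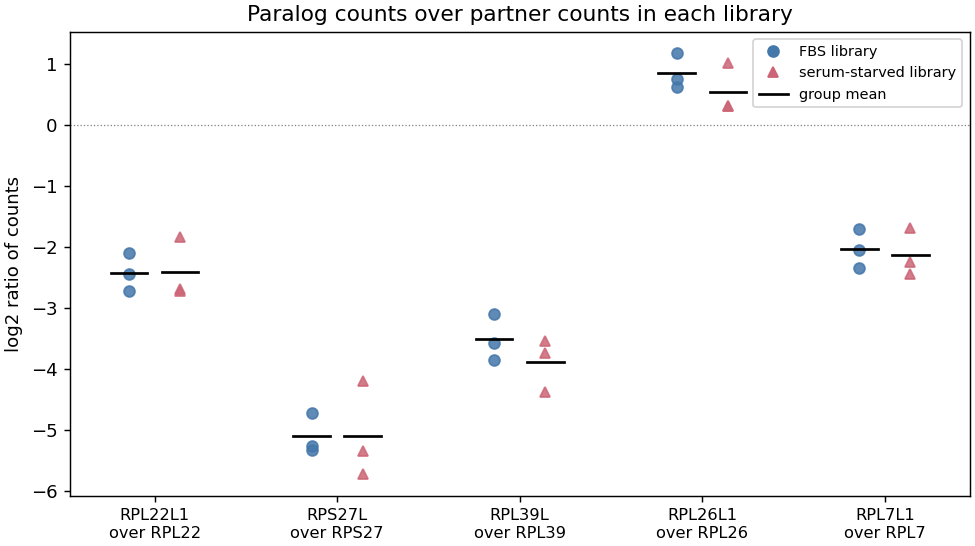
Log2 ratio of the counts of a paralog to those of its partner in each library, FBS as circles and serum-starved as triangles, with group means as bars. The groups overlap in all 5 pairs, and RPL26L1 over RPL26 is the pair whose ratios lie above 0.

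The TOP tract was then set beside the fold changes, as a description. The 47 with a tract had a median log2 fold change of -0.20 (35 below 0) and the 19 without one a median of -0.19 (13 below 0). Without serum-starved replicate 3 these medians were 0.06 and 0.01. RPL39, which has the longest tract of the members, and RPS24 were the highest in log2 fold change, and RPL35 with 11 bases was among the lowest. The other mRNAs known to carry such a tract, a list of translation factors and related genes with 24 tested, had a median of -0.09 with 15 below 0. Their highest was CCNI at 0.72 and their lowest EIF3E, a subunit of the initiation factor, at -0.86 (edgeR adjusted p = 0.457). EIF3E passed without serum-starved replicate 3, at -1.50 (edgeR adjusted p = 0.0117), and stood at -0.45 with the GC and length correction (edgeR adjusted p = 0.31). CCNI was at 0.40 without serum-starved replicate 3.

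Genes around the ribosomal proteins were read from lists. None of the listed genes passed the edgeR test with all libraries and without the GC and length correction. Of 18 genes listed as chaperones and importers of ribosomal proteins, 16 were below 0, beside 51.5% of all genes. Their median was -0.36 (-0.48 without serum-starved replicate 3). The importer TNPO1 was their lowest, at 86.1, 49.6 and 63.2 CPM with FBS and at 22.8, 24.6 and 52.9 CPM without serum. One serum-starved library overlapped the FBS values of TNPO1, and its log2 fold change of -0.99 had an edgeR adjusted p of 0.332. TNPO1 passed with the GC and length correction (-0.98, edgeR adjusted p = 0.0313) and without serum-starved replicate 3 (-1.49, 0.00621). The importer IPO9 was the highest of that list at 0.34. That list shares NAP1L1, IPO5, NACA and BTF3 with the list of other mRNAs known to carry a TOP tract. Of 19 regulators of ribosomal protein mRNAs, 12 were below 0, with a median of -0.21, between MTOR, the kinase of mTORC1, at 0.61 and the cap-binding protein EIF4E at -1.10 (edgeR adjusted p = 0.486 and 0.453). MTOR was at 0.32 without serum-starved replicate 3.

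Of 9 genes that detect unassembled ribosomal proteins or stalled ribosomes, 5 were above 0, with a median of 0.16. HUWE1, a ubiquitin ligase that marks unassembled ribosomal proteins, was at 119, 154 and 170 CPM with FBS and at 248, 229 and 491 CPM without serum. Every serum-starved library of HUWE1 was above every FBS library, at a log2 fold change of 1.13 (edgeR adjusted p = 0.256). It was 0.69 without serum-starved replicate 3 and 0.68 with the GC and length correction. ASCC3, a helicase that splits collided ribosomes, was the lowest of that list at -0.85, and at -1.69 without serum-starved replicate 3. With the correction the median of the list was -0.04. Of 7 factors tied to idle ribosomes, 5 were below 0, with a median of -0.11, between EEF2 at 0.37 and CCDC124 at -0.71 (-0.29 without serum-starved replicate 3). Of ribosome components outside the naming rule, the scaffold RACK1 was at 0.23 on the log2 scale (edgeR adjusted p = 0.863), and at 0.00 with the GC and length correction.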

How the data were processed

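RNA of 6 Ovcar8 libraries was extracted with Trizol and a column, made into libraries with NEBNext Ultra II and sequenced on a NovaSeq, per the labels' protocols. The tools STAR 2.6.1 and DESeq2 and the build GRCh38 are listed per the submitters' processing notes. What each did, how reads were counted and whether strand was used is not given in the sources used here. Raw counts per gene and library were deposited by the authors. The authors also deposited FPKM, which equalled the count divided by gene length, the DESeq2 size factor and the geometric mean of library totals (ratio 1 over 10654 genes).

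From the counts, genes were kept by filterByExpr (minimum count 10, minimum total 15), scaled by TMM and compared on all genes in R 4.3.3 by the quasi-likelihood test of edgeR 4.0.16 (glmQLFit, robust, and glmQLFTest). Calls were made at a Benjamini-Hochberg adjusted p under 0.05. CPM values are TMM-scaled. Values are mean ± SD, an SE is the log2 fold change divided by the root of F, and limits for a count of 0 cover counting error only. Shares and ratios (counts plus 0.5) were compared by exact permutation. Scripts were tested on simulated data. GC content came from GENCODE transcripts, exon overlap from its annotation, and sequences from RefSeq.

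Named with values were members that passed (none did), the 5 highest and 5 lowest log2 fold changes, the 3 highest and 3 lowest FPKM, paralog pairs, 17 members of known role, and the extremes of each list. Some of these are not reported here. The members and lists were chosen with earlier results of these data known. Alternatives were other scalings, filters, DESeq2 1.42.0, limma 3.58.1 on voom and on log2 FPKM, a replicate block, a GC and length correction (splines with 5 degrees of freedom), protein-coding genes alone and each library left out.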

Additional observations from a re-analysis of the deposited data

How the results depend on the processing

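No member passed in any of the 22 alternatives. Their median log2 fold change ran from -0.36 without serum-starved replicate 1 to 0.02 without serum-starved replicate 3. The count of all genes called, 39, became 25 with total counts only, 127 with no low-count filter, 160 with DESeq2, 22 with log2(FPKM + 1) and 19 with log2(FPKM + 0.1), both at a mean of at least 0.5, and 0 with log2(FPKM + 1) and no filter (limma, 1534 genes at an unadjusted p under 0.05). It became 125 with the GC and length correction, 94 with that correction and the replicate block, and 4 to 257 with 1 library left out each time. Added alternatives, chosen after seeing the data, were the correction without serum-starved replicate 3 (88 genes called) and pseudogene counts added to the parent. Nothing in the labels says that the replicate numbers pair the libraries. Same-numbered libraries correlated at -0.26, 0.10 and -0.08 in their deviations from the group means, and not every library correlated best with its own number. These correlations cannot decide whether libraries were paired, since the deviations of 3 libraries from their own mean depend on each other. With the replicate block the members' median was -0.23, 0 members and 43 genes being called. Paralog differences changed sign with 1 library left out, running from -0.285 to 0.167 for RPL22L1 over RPL22, from -0.436 to 0.328 for RPS27L over RPS27 and from -0.312 to 0.0695 for RPL7L1 over RPL7. Of the 36 named members, 20 kept their sign in all alternatives, and 47 of 792 values had the other sign. Some values moved far without changing sign: RPL39 ran from 0.46 to 1.30 and RPS10 from -1.17 to -0.04. The causes of these shifts were not tested. At 3 libraries a group and a biological coefficient of variation of 36.3%, the intervals of RPLP0, RPL13A and RPS18 reached past 1.5-fold. Differences of that size, in either direction, were therefore not excluded in these genes. The size of difference that would have been called was not tested.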
